A study of Mus musculus with 6 samples.

Results

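The 8 genes described here, Ms4a4a, Ms4a4b, Ms4a4c, Ms4a6b, Ms4a6c, Ms4a6d, Ms4a7 and Ms4a8a, belong to the MS4A family and were taken by name from a table of 34745 mouse genes. All 8 were in the table and all 8 passed the filter on low counts, which kept 14037 genes. RNA was sequenced in 6 libraries of cells recovered by washing the air spaces of the lung (bronchoalveolar lavage) and labelled alveolar macrophages, the resident phagocytes of the air sacs. There were 3 libraries from Phlpp1-deficient mice, called KO in the libraries' names, and 3 from wild-type (WT) mice. Mice of both genotypes were given bleomycin (5 mg per kg), which damages the lung and leads to fibrosis, and lavage was done on day 7. Phlpp1 codes for a phosphatase that acts on the kinase Akt. Neither the Phlpp1 allele nor the animals' age is described in the labels. Nor is it stated whether libraries stem from separate animals, so errors here measure the spread between libraries, which may be technical. The 8 genes were chosen by family and on their per-library levels and genotype differences, which were known from earlier results of these data. Those differences are therefore given as a description and support nothing by themselves.

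MS4A proteins cross the cell membrane several times and lie beside other receptors, whose signals they adjust. The family's best known members are CD20, coded by Ms4a1 on B cells, and the beta chain of the high-affinity IgE receptor, coded by Ms4a2 on mast cells. Several others are genes of monocytes and macrophages, and in humans the locus has been linked to TREM2, a lipid-sensing receptor of phagocytes.

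Total counts lay between 13340861 and 15843764 per library. Phlpp1 itself had 23.2, 21.6 and 17.7 CPM (counts scaled for depth and composition) in KO libraries 1, 2 and 3, against 30.3, 25.3 and 28.5 CPM in WT libraries 1, 2 and 3, and a count over the whole gene checks the genotype labels only weakly. All 15 markers of resident alveolar macrophages were detected, with summed levels of 2480 to 4730 FPKM in KO libraries and 2390 to 3040 FPKM in WT libraries (FPKM are counts per kilobase of gene, scaled for depth). The lavage also held other cells. The 11 neutrophil markers summed to 620 to 4250 FPKM in KO libraries and 496 to 5320 FPKM in WT libraries, and the 11 T cell markers to 565 to 854 FPKM in KO libraries and 454 to 692 FPKM in WT libraries. Those of dendritic cells, led by Ccr7 and Itgae, summed to 107 to 196 FPKM in KO libraries and 98.6 to 161 FPKM in WT libraries. Markers of eosinophils, mast cells and basophils, led by Prg2 and Ccr3, summed to 19.4 to 63.3 FPKM in KO libraries and 4.99 to 14.6 FPKM in WT libraries. Markers of lung epithelium, led by Scgb1a1 and Krt18, summed to 423 to 1320 FPKM in KO libraries and 253 to 289 FPKM in WT libraries. In such mixed cells, fewer cells of a type and less RNA per cell cannot be told apart.

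The 8 genes lie on chromosome 19 in 1 cluster, from the start of Ms4a8a at 11067471 to the end of Ms4a6d at 11604849 (GRCm38, GENCODE M21). Ms4a8a (11067471 to 11081102) and Ms4a7 (11321039 to 11336146) are on the minus strand. Ms4a4a (11375523 to 11392790), Ms4a4c (11404770 to 11427246), Ms4a4b (11443553 to 11467055), Ms4a6c (11469366 to 11482192) and Ms4a6b (11516512 to 11531256) follow on the plus strand, and Ms4a6d (11586604 to 11604849) is on the minus strand. Their coding sequences run from 654 bases in Ms4a6c to 873 bases in Ms4a8a. The coding sequences of Ms4a4b and Ms4a4c were the most alike, with 91.8% identity over 681 bases and no gap. With gaps left out, Ms4a6b and Ms4a6c were 85.3% identical over 645 aligned bases, Ms4a6b and Ms4a6d 81.3% over 733, and Ms4a4a and Ms4a4c 68.3% over 649.

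Bases upstream of RefSeq starts are shown for 2 pairs of neighbours with close coding sequences. The levels of each pair across the libraries are compared below. The Ms4a4c and Ms4a6b windows lie inside those genes as placed above, past their GENCODE M21 starts at 11404770 and 11516512. Each window holds the 250 bases before a RefSeq start (GRCm38.p6, plus strand), and capitals mark the longest run of letters that the pair shares without a gap or mismatch.
Ms4a6c, chr19:11469118-11469367: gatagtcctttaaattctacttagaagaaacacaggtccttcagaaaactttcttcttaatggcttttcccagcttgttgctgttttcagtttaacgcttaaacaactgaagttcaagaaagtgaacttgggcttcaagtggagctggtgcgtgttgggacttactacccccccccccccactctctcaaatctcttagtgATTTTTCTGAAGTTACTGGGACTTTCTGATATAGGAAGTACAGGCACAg
Ms4a6b, chr19:11518309-11518558: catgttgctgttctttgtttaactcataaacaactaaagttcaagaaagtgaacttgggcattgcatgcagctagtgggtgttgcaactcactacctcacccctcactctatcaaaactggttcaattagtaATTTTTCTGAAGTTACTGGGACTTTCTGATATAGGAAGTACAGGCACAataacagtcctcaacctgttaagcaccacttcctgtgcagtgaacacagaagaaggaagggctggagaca
Ms4a4c, chr19:11407411-11407660: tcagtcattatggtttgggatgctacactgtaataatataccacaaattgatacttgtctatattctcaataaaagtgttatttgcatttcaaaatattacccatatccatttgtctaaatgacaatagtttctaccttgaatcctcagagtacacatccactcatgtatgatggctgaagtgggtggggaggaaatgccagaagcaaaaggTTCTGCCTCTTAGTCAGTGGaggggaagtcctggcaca
Ms4a4b, chr19:11443308-11443557: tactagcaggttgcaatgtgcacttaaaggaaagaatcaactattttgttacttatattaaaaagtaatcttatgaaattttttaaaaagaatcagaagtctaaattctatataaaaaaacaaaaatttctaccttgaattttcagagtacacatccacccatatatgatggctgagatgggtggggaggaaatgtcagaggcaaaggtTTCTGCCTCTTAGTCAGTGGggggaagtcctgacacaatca

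The shared run was 48 bases in the Ms4a6c and Ms4a6b windows and 20 bases in the Ms4a4c and Ms4a4b windows. Over the letters that align, the Ms4a6 windows were 85.1% identical (175 bases) and the Ms4a4 windows 80.1% identical (231 bases). Windows were given for 7 of the 8 genes, with 2 for Ms4a7, and were searched on both strands for 4 motifs. The letters AGGAAGT, bound by the myeloid factor PU.1, were found in the Ms4a6c window, within the shared run, and at 2 places in the Ms4a6b window. They occur in 7.69% of 32851 promoter windows of that length. The interferon response element, searched as GAAA, any 2 bases, GAAA (2.98% of windows), and the composite element of ETS and IRF factors, GGAA, any 2 bases, GAAA (2.3%), were in none of the 8 windows. The AP-1 letters TGANTCA (6.75%) were in the Ms4a8a window and in 1 of the 2 Ms4a7 windows. The composite shares GGAA with the PU.1 letters and its last letters with the interferon element, so these searches overlap.

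Ms4a6d and Ms4a6c had the highest levels, with means over the 6 libraries of 95.5 ± 26.3 and 90.5 ± 29.5 FPKM (SD, n = 6). Ms4a8a followed with 56.5 ± 14.8 FPKM, then Ms4a4a with 49.1 ± 25.6 FPKM, Ms4a4b with 42.3 ± 8.18 FPKM, Ms4a4c with 40.8 ± 25.5 FPKM and Ms4a6b with 33.6 ± 5.40 FPKM. Ms4a7 was lowest at 6.45 ± 3.73 FPKM. The order of the means was not the same in both genotypes, and that difference was not tested. In KO libraries Ms4a8a (58.6 ± 22.7 FPKM) stood above Ms4a4a (36.8 ± 21.9 FPKM), and Ms4a6b (30.2 ± 5.26 FPKM) above Ms4a4c (26.0 ± 11.2 FPKM). In WT libraries Ms4a4a (61.3 ± 26.6 FPKM) and Ms4a4c (55.6 ± 29.0 FPKM) stood above Ms4a8a (54.4 ± 4.04 FPKM), within their spread, and Ms4a6c (114 ± 18.0 FPKM) was level with Ms4a6d (113 ± 20.9 FPKM; SD, n = 3 each). Only 2 steps in the pooled order held in all 6 libraries, that from Ms4a6c to Ms4a8a and that from Ms4a6b to Ms4a7. Ms4a4a, Ms4a4b and Ms4a4c each led the next gene in 3 of 6 libraries, so the order of Ms4a4a, Ms4a4b, Ms4a4c and Ms4a6b was not larger than the spread between libraries. The gene lengths behind the deposited FPKM matter here. The length implied for Ms4a6b was 8.22 kb, against 4.49 kb for all its GENCODE M21 exons and 2.68 kb for its longest coding transcript. For Ms4a4a all of these lengths were 0.836 kb. A longer length gives a lower FPKM for the same counts. Per kilobase of the longest coding transcript, Ms4a6b moved to the third place with 103 ± 16.6 depth-scaled counts per kb, and Ms4a4a to the seventh with 49.1 ± 25.6, while Ms4a6d and Ms4a6c stayed first and second at 156 ± 43.0 and 114 ± 37.1 (SD, n = 6).

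Together the 8 genes took 0.108%, 0.106% and 0.113% of all counts in KO libraries 1, 2 and 3, and 0.127%, 0.147% and 0.165% in WT libraries 1, 2 and 3. Their summed level was 295, 385 and 344 FPKM in KO libraries 1, 2 and 3, against 392, 510 and 563 FPKM in WT libraries 1, 2 and 3. Every KO library lay below every WT library, although KO library 2 and WT library 1 nearly met. The means were 341 ± 44.9 FPKM in KO and 488 ± 87.5 FPKM in WT (SD, n = 3 each), a log2 ratio of -0.52. Ms4a6c and Ms4a6d made up 38.4% to 47.3% of the sum in KO libraries and 43.5% to 49.2% in WT libraries.

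**Figure D1:**
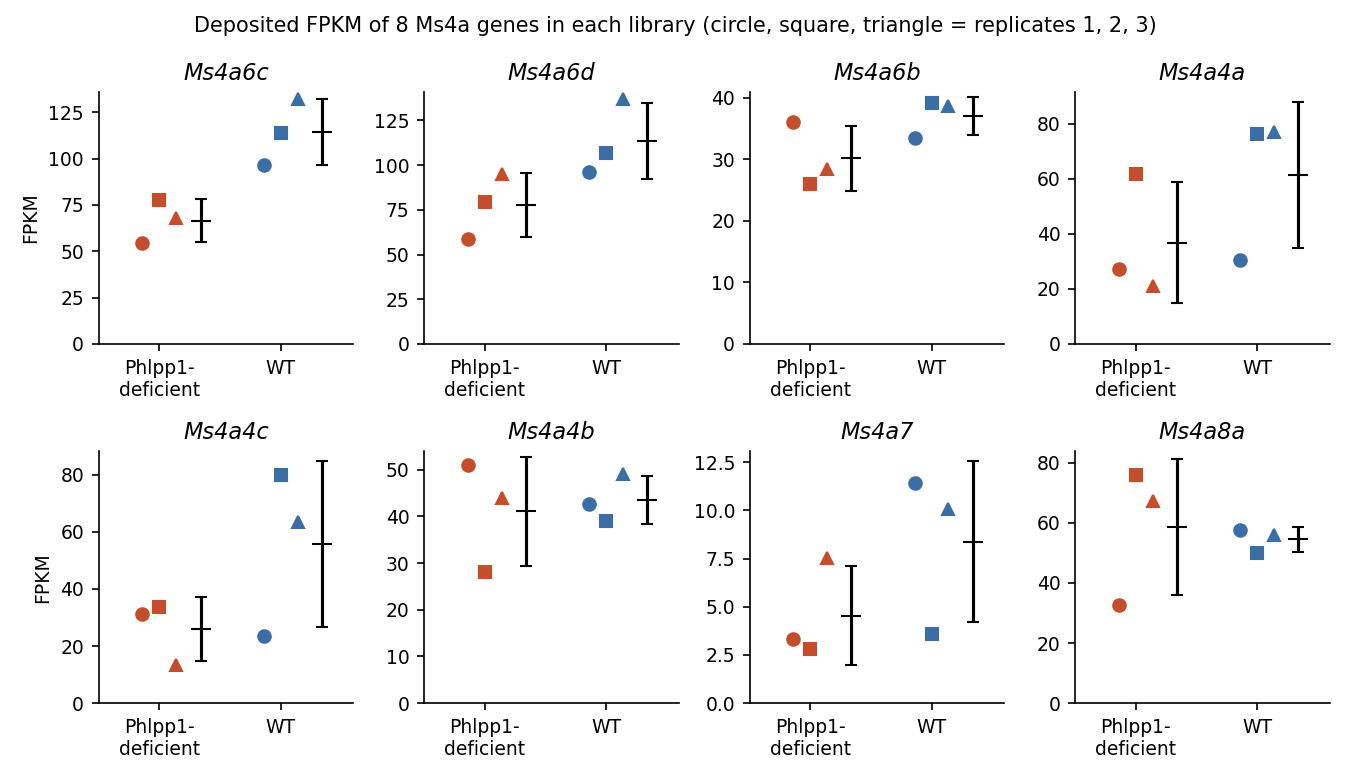
Deposited FPKM of each of the 8 genes in the 3 Phlpp1-deficient libraries (orange, left) and the 3 WT libraries (blue, right), each panel with its own linear axis from 0; black bars show the mean and SD of each group. Ms4a6c and Ms4a6d have every Phlpp1-deficient point below every WT point, while the other 6 genes overlap between the genotypes. In scaled CPM only Ms4a6c stayed apart, as held in this direction for 6.53% of all tested genes. The share over all genes was not counted in FPKM.

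Between the genotypes, 0 of the 8 genes passed the test across all genes (edgeR's quasi-likelihood test, Benjamini-Hochberg adjusted p under 0.05), where 0.0997% of all tested genes passed. With DESeq2, 0 of the 8 passed, against 1.42% of genes. The smallest adjusted p among the 8 was 0.462 with edgeR and 0.0832 with DESeq2, both for Ms4a6c. With edgeR, an unadjusted p under 0.05 was given to 2 of the 8, Ms4a6c and Ms4a6d, both lower in KO. The same held for 6.96% of all genes, and for 3.56% in that direction. The log2 difference (KO minus WT) was below 0 for 7 of the 8 and above 0 for Ms4a8a, with a median of -0.66. Over all genes the median was -0.02 and 54.3% lay below 0. Since the genes were chosen with this contrast known, nothing is read from these counts.

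**Figure D2:**
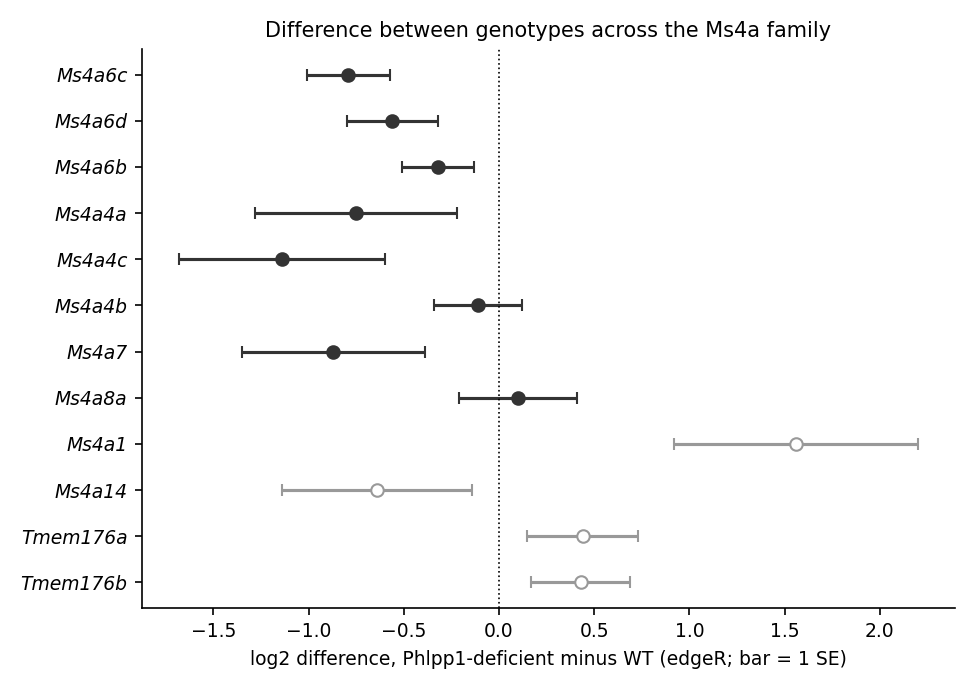
Log2 difference (Phlpp1-deficient minus WT, horizontal axis) from edgeR with bars of 1 standard error, for the 8 genes (filled) and the 4 tested relatives (open). The 8 genes run from -1.14 for Ms4a4c to 0.10 for Ms4a8a, and Ms4a1 lies highest at 1.56.

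Ms4a6c, a monocyte gene in mice, had 54.3, 77.5 and 67.9 FPKM in KO libraries 1, 2 and 3, against 96.5, 114 and 132 FPKM in WT libraries 1, 2 and 3. All 3 KO libraries lay below all 3 WT libraries, on the FPKM scale and in scaled CPM. Its mean was 154 ± 31.4 CPM in KO and 267 ± 47.6 CPM in WT (SD, n = 3 each), 0.577 times the WT level (log2 difference -0.79, SE 0.22). It was the only 1 of the 8 whose groups did not overlap in scaled CPM, as held in this direction for 6.53% of all tested genes. In the opposite direction the groups were apart for 0 of the 8, and for 4.57% of all genes. Part of its transcript, at most 251 bases, is at least 95% identical to 6 other genes, and BE692007 overlaps it on the opposite strand, so its count is uncertain where reads could be split.

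Ms4a6d, a macrophage gene in mice, had 58.9, 79.1 and 94.9 FPKM in KO libraries 1, 2 and 3, against 96.2, 107 and 137 FPKM in WT libraries 1, 2 and 3. In FPKM the groups did not overlap, but KO library 3 and WT library 1 lay close to each other. After scaling they did overlap, with 217 CPM in KO library 3 and 213 CPM in WT library 1. The log2 difference was -0.56 (SE 0.24). Across libraries Ms4a6d moved most like Ms4a6c, with a root mean square difference of 0.18 between their log2 CPM, each centred on its own mean, the smallest of any pair of members.

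Ms4a6b, found in mouse T cells as well as macrophages, varied least, 1.59-fold between its highest and lowest CPM. It had 36.1, 26.0 and 28.4 FPKM in KO libraries 1, 2 and 3, against 33.5, 39.1 and 38.6 FPKM in WT libraries 1, 2 and 3. KO library 1 lay above WT library 1, so the groups overlapped (log2 difference -0.32, SE 0.19, and -0.20 without WT library 2). By the same measure Ms4a6b was 0.38 from Ms4a6c and 0.21 from Ms4a4b, where the median over 10358 genes of at least 5 CPM was 0.32. Ms4a6b and Ms4a4b both vary little (SD of log2 CPM 0.26 and 0.28), which keeps the measure small between them. A link to the shared upstream stretch was not tested. Gm19261 overlaps Ms4a6b on the opposite strand.

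A list of 15 monocyte and monocyte-derived macrophage markers is given beside these genes. Of 15 tested, 0 passed, 14 lay below 0 and the median log2 difference was -0.71. Their summed level was 1510, 1780 and 2010 FPKM in KO libraries 1, 2 and 3, against 2510, 1560 and 2640 FPKM in WT libraries 1, 2 and 3, so WT library 2 lay among the KO libraries. None of the 15 was at 0 in all libraries. The complement genes C1qa and C1qb, the most abundant of them, had log2 differences of -0.69 (SE 0.47) and -0.67 (SE 0.47). Single markers did not all follow the sum. In WT library 2 C1qa was at its lowest (223 FPKM), while Ly6c2 (90 FPKM) and Plac8 (143 FPKM) were at their highest. Cd14 was the 1 marker above 0 (log2 difference 1.14, SE 0.76), with 467 and 712 FPKM in KO libraries 1 and 2. For 6 of the 15, including the monocyte receptor Ccr2 (log2 difference -0.61, SE 0.16), every KO library lay below every WT library in CPM, as for 6.53% of all genes. The part of monocyte-derived cell numbers in the Ms4a6c and Ms4a6d values was not tested.

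Ms4a7, used in mice to mark macrophages of monocyte origin, had 3.31, 2.81 and 7.51 FPKM in KO libraries 1, 2 and 3, against 11.4, 3.61 and 10.1 FPKM in WT libraries 1, 2 and 3. KO libraries 1 and 2 and WT library 2 were low, and KO library 3 and WT libraries 1 and 3 were high. The log2 difference was -0.87 (SE 0.48), and it was -1.41 without KO library 3 and -0.62 without WT library 1. The 3 libraries low in Ms4a7 were those with the highest summed level of neutrophil markers, 2710 and 4250 FPKM in KO libraries 1 and 2 and 5320 FPKM in WT library 2. The others had 620 FPKM in KO library 3 and 496 and 1160 FPKM in WT libraries 1 and 3. The most abundant neutrophil markers were the calprotectin genes S100a9 and S100a8, with log2 differences between the genotypes of -0.16 (SE 1.03) and 0.31 (SE 1.07), and 0 of the 10 tested neutrophil markers passed (median 0.05). With the mean of these markers as a covariate, added after the values were seen, the Ms4a7 difference was -0.55 (SE 0.22, edgeR adjusted p = 0.434). The part of neutrophil numbers was not tested otherwise.

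Among 10358 other genes with at least 5 CPM, those most like Ms4a7 across the 6 libraries were C1qc, C1qb and C1qa, the chains of the complement starter C1q made by tissue macrophages. Their root mean square differences from it were 0.09, 0.11 and 0.14 in centred log2 CPM, where the median over all these genes was 0.77. C1qc had 177, 165 and 433 CPM in KO libraries 1, 2 and 3, against 593, 197 and 489 CPM in WT libraries 1, 2 and 3. Trem2, whose protein is linked to the family, had the same low libraries, with 10.2, 13.3 and 28.0 FPKM in KO libraries 1, 2 and 3 and 31.3, 11.4 and 28.0 FPKM in WT libraries 1, 2 and 3.

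Ms4a4a, whose product sits with the fungal receptor dectin-1 on macrophages, had 27.4, 61.8 and 21.2 FPKM in KO libraries 1, 2 and 3, against 30.6, 76.4 and 76.9 FPKM in WT libraries 1, 2 and 3. KO library 2 was high and WT library 1 was low, so the groups overlapped. The log2 difference was -0.75 (SE 0.53). It was -1.40 without KO library 2, -0.45 without KO library 3 and -0.48 without WT library 2. F13a1, the A chain of coagulation factor XIII made by monocytes, was most like it, with a root mean square difference of 0.19, followed by the endocytic adaptor Ston2 (0.23) and the small GTPase Rhov (0.26). F13a1 had 92.1, 193 and 87.0 CPM in KO libraries 1, 2 and 3, against 99.2, 260 and 320 CPM in WT libraries 1, 2 and 3. Of 6 receptors and adaptors that work with MS4A proteins, 0 passed, 2 lay above 0 and 4 below, and the median was -0.20. For 1 of them, Tnfrsf18 (log2 difference 0.27, SE 0.14), every KO library lay above every WT library, as for 4.57% of all genes. Tyrobp and Fcer1g, adaptors that carry signals from many myeloid receptors, had log2 differences of -0.31 (SE 0.21) and -0.30 (SE 0.25), and Clec7a, which codes for dectin-1, of -0.09 (SE 0.20).

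Ms4a4c, an interferon-responsive gene of mouse monocytes, varied most, 6.71-fold between its highest and lowest CPM. It had 31.3, 33.6 and 13.2 FPKM in KO libraries 1, 2 and 3, against 23.5, 80.0 and 63.4 FPKM in WT libraries 1, 2 and 3. WT libraries 2 and 3 stood above the other 4, and WT library 1 lay within the KO range. Its log2 difference was the lowest of the 8 at -1.14 (SE 0.54), and it was -0.69 without WT library 2. In the fit with that neutrophil covariate it was -1.47 (SE 0.20, edgeR adjusted p = 0.0398), the only fit of those run in which any of the 8 genes passed. In that fit 0.299% of all genes passed. Gm5692 overlaps Ms4a4c on the opposite strand.

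Interferon-stimulated genes, 12 in the list, are given beside Ms4a4c. Their summed level was 914, 560 and 275 FPKM in KO libraries 1, 2 and 3, against 273, 2890 and 808 FPKM in WT libraries 1, 2 and 3. Of the 12 tested, 0 passed, all 12 lay below 0 and the median log2 difference was -0.92, with overlapping groups for each. The most abundant, Ifit3 and Isg15, had differences of -1.65 (SE 0.99) and -0.93 (SE 0.82). WT library 2 was highest and WT library 1 and KO library 3 were lowest in both Ms4a4c and the interferon sum. KO library 1 and WT library 3 went opposite ways. The interferon sum was higher in KO library 1 (914 against 808 FPKM), but Ms4a4c was lower there (31.3 against 63.4 FPKM). Clec4a1, a C-type lectin of monocytes, and Ifi211 and Ifi205 of the interferon-inducible p200 family were the genes most like Ms4a4c, at 0.25, 0.25 and 0.30. Ifi211 had 82.9, 91.7 and 56.4 CPM in KO libraries 1, 2 and 3, against 72.4, 299 and 170 CPM in WT libraries 1, 2 and 3. The part of interferon exposure in the Ms4a4c difference was not tested.

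Ms4a4b, known from mouse T cells, where its product associates with the receptor GITR, had 51.0, 28.2 and 44.0 FPKM in KO libraries 1, 2 and 3, against 42.6, 39.0 and 49.0 FPKM in WT libraries 1, 2 and 3. KO library 1 was the highest and KO library 2 the lowest, with the WT libraries between them. The log2 difference was -0.11 (SE 0.23), and without KO library 2 it was 0.09. Although its coding sequence is closest to that of Ms4a4c, the root mean square difference between their library profiles was 0.92, among the largest between members. The median over 10358 genes was 0.93 for Ms4a4c and 0.33 for Ms4a4b. Ms4a4c varies widely (SD of log2 CPM 0.99, against 0.28 for Ms4a4b), which keeps the measure large for it. The pair was thus about as far apart as Ms4a4c was from a typical gene, and no divergence of the pair is read from this value. Il2rb, the beta chain of the interleukin-2 receptor on T and NK cells, was most like Ms4a4b at 0.05, with 282, 177 and 267 CPM in KO libraries 1, 2 and 3 and 258, 250 and 289 CPM in WT libraries 1, 2 and 3. The next were the protease gene Adamts6 (0.07) and the cadherin gene Celsr1 (0.08).

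T cell markers, led by Thy1 and Cd3g, had 854, 565 and 725 FPKM in sum in KO libraries 1, 2 and 3, against 692, 454 and 576 FPKM in WT libraries 1, 2 and 3. Of 11 tested, 0 passed, the median was 0.34, and 1 had every KO library above every WT library, as for 4.57% of all genes. NK cell markers, led by the granzymes Gzma and Gzmb, summed to 109, 62.4 and 84.8 FPKM in KO libraries 1, 2 and 3, against 89.7, 131 and 170 FPKM in WT libraries 1, 2 and 3. Of 8 tested, 0 passed, the median was -0.84, and 4 had every KO library below every WT library, as for 6.53% of all genes. Neither list had a member at 0 in all libraries. Among the KO libraries, library 2 was lowest in both lists and in Ms4a4b. Over all 6 libraries the NK cell sum, like Ms4a4b, was lowest in KO library 2. The T cell sum was lowest in WT library 2, where Ms4a4b was not. The part of lymphocytes in the Ms4a4b and Ms4a6b levels was not tested.

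**Figure D3:**
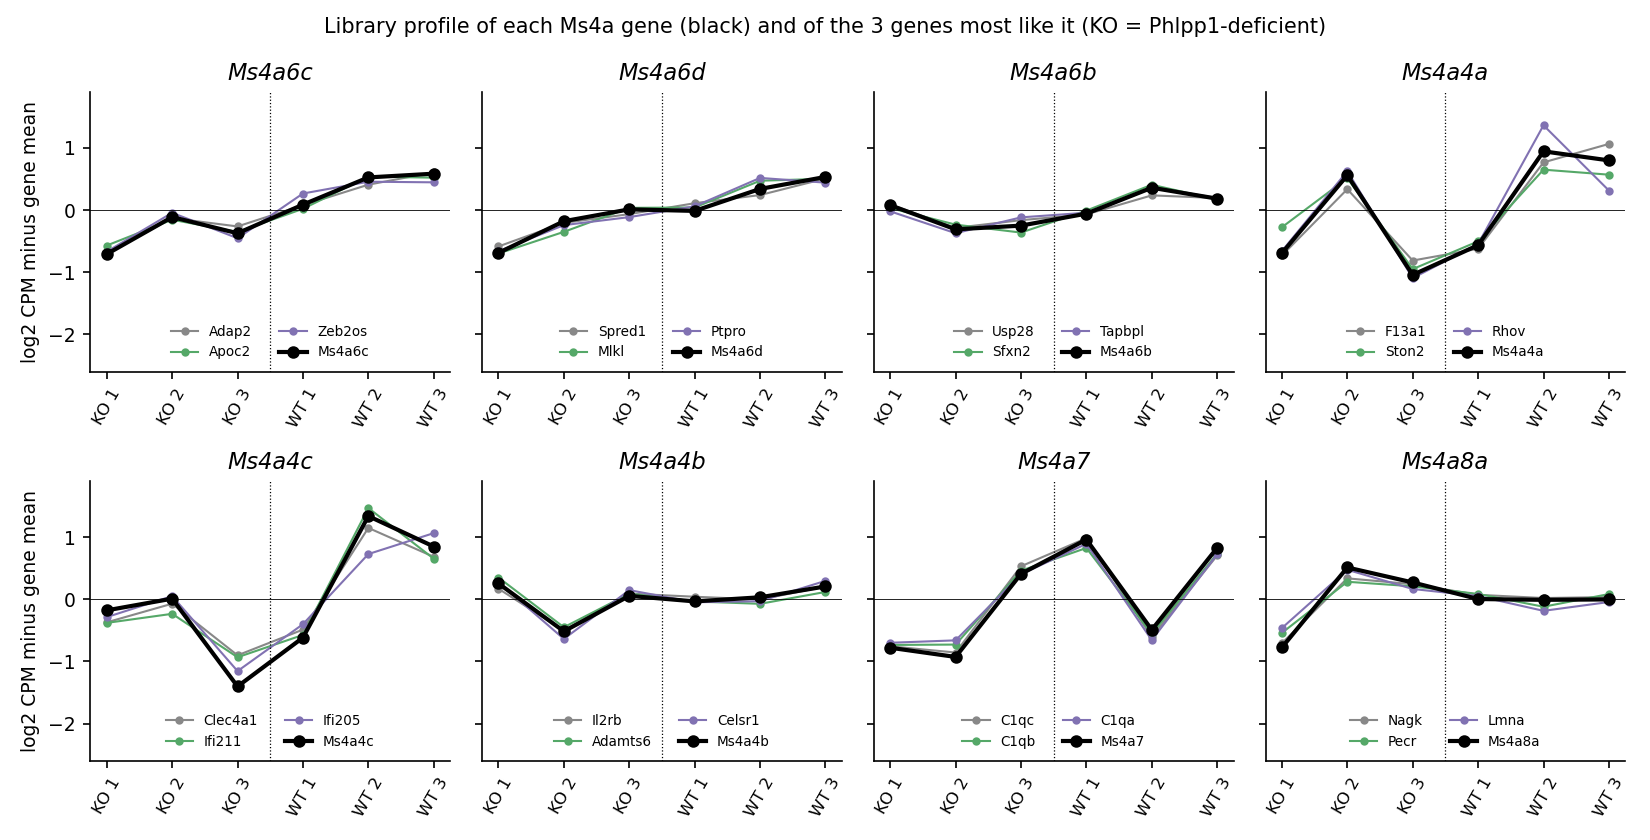
Log2 CPM of each of the 8 genes (black, centred on its mean over 6 libraries) and of the 3 genes most like it (colours), with Phlpp1-deficient libraries on the left and WT libraries on the right of each panel. Ms4a7 dips in KO libraries 1 and 2 and WT library 2 together with C1qa, C1qb and C1qc, Ms4a4c peaks in WT library 2, and Ms4a4b and Ms4a6b vary least.

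Ms4a8a, described in mice on macrophages exposed to interleukin-4 and glucocorticoid, had 32.8, 75.7 and 67.3 FPKM in KO libraries 1, 2 and 3, against 57.6, 49.9 and 55.8 FPKM in WT libraries 1, 2 and 3. In CPM the WT libraries were close together, at 105 ± 0.463 CPM, while KO libraries spread widely, at 113 ± 45.9 CPM (SD, n = 3 each). In FPKM the WT libraries had 54.4 ± 4.04 and the KO libraries 58.6 ± 22.7, so the closeness of the WT values depended on the scaling. KO library 1 lay below and KO libraries 2 and 3 above all WT libraries. The log2 difference was 0.10 (SE 0.31), and without KO library 2 it was -0.16. Resident macrophage markers, led by the chitinase-like gene Chil3 and the ribonuclease gene Ear2, summed to 2480, 4730 and 4470 FPKM in KO libraries 1, 2 and 3, against 2880, 3040 and 2390 FPKM in WT libraries 1, 2 and 3. KO libraries 2 and 3 stood highest in this sum, as in Ms4a8a. KO library 1 was low in both, but WT library 3 lay below it in the sum and above it in Ms4a8a. Chil3 alone gave 1630 FPKM of the sum in KO library 1 and 3120 FPKM in KO library 2. Of 15 markers, 0 passed (median 0.33). Genes of alternative activation and glucocorticoid response, led by Chil3 and Arg1, had a median of 0.07 over 12 tested, of which 0 passed. The widest difference in that list was 2.04 (SE 0.43) for Retnla, a secreted product of such macrophages, the 1 gene of the 12 with every KO library above every WT library, as for 4.57% of all genes. Chil3 had a log2 difference of 0.62 (SE 0.39), Ear2 of 0.47 (SE 0.38) and Arg1, which codes for arginase, of -1.01 (SE 0.47).

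The sugar kinase gene Nagk was most like Ms4a8a (0.08), followed by the peroxisomal reductase gene Pecr (0.15) and the lamin gene Lmna (0.16). Nagk had 19.6, 40.5 and 37.9 CPM in KO libraries 1, 2 and 3, against 33.7, 32.5 and 32.9 CPM in WT libraries 1, 2 and 3. Those most like Ms4a6c were Adap2 (0.07), the apolipoprotein gene Apoc2 (0.07) and Zeb2os (0.11), annotated antisense to Zeb2, and those most like Ms4a6d were the Ras pathway inhibitor Spred1 (0.08), the necroptosis gene Mlkl (0.09) and the phosphatase gene Ptpro (0.10). For Ms4a6b they were the deubiquitinase gene Usp28 (0.06), Sfxn2 (0.06) and Tapbpl (0.07), an editor of MHC class I peptides. For Ms4a6b and Ms4a4b, which vary little, the median over all 10358 genes was 0.32 and 0.33, against 0.45 for Ms4a8a.

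**Figure D4:**
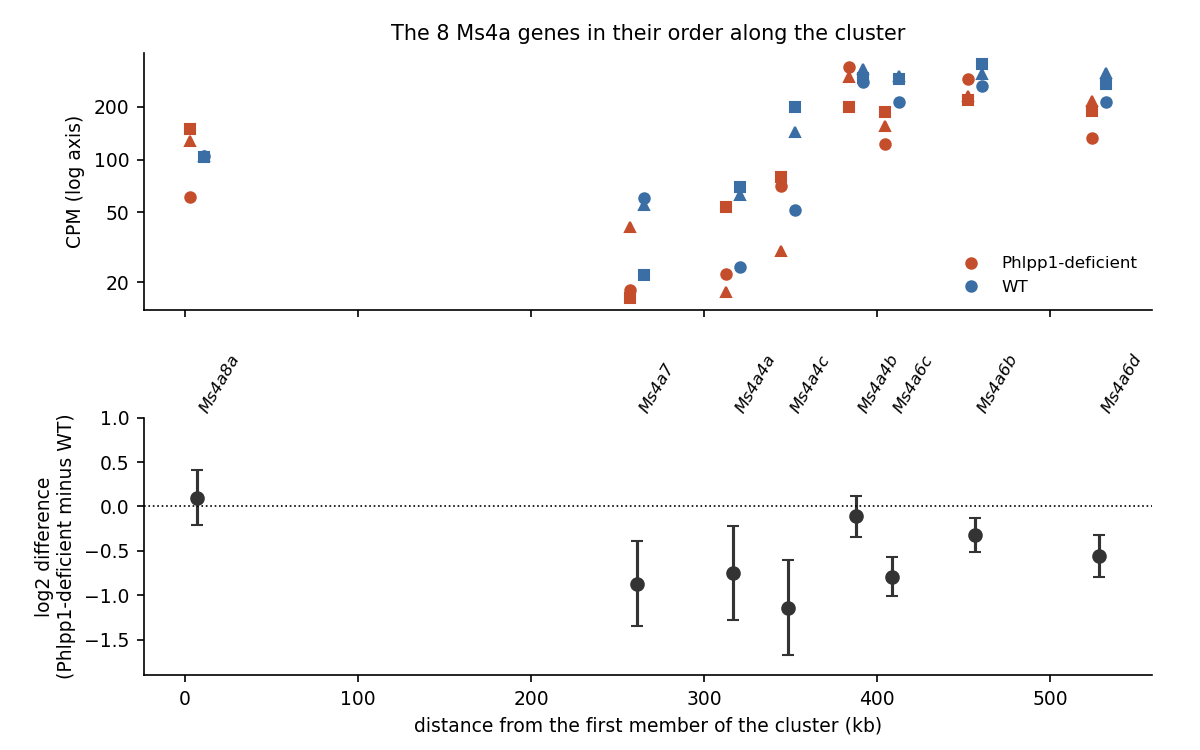
The 8 genes at the distance of their midpoints from the start of the first member (kb), with the CPM of each library above (log axis, Phlpp1-deficient libraries in orange left of WT libraries in blue, shapes as replicates 1, 2 and 3) and the log2 difference with 1 standard error below. The genes in the middle of the cluster, Ms4a7 to Ms4a4c, have the widest spread between libraries and the largest standard errors.

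The rest of the family was mostly silent. Of 11 other Ms4a genes, Ms4a10, Ms4a12, Ms4a13 and Ms4a18 had 0 counts in every library, which allows up to 0.189 to 0.225 CPM per library (3 counts, counting error only). Ms4a2, Ms4a3, Ms4a4d, Ms4a5 and Ms4a15 averaged below 0.5 FPKM. Tested were Ms4a1, Ms4a14 and the related Tmem176a and Tmem176b on chromosome 6, and 0 of these 4 passed, with 3 above 0 and a median of 0.44. Ms4a1, which codes for CD20, had 14.6, 2.45 and 5.30 FPKM in KO libraries 1, 2 and 3, against 4.11, 1.58 and 1.82 FPKM in WT libraries 1, 2 and 3 (log2 difference 1.56, SE 0.64). B cell markers, led by Cd79a and Blk, summed to 381, 95.1 and 128 FPKM in KO libraries 1, 2 and 3, against 106, 36.2 and 42.9 FPKM in WT libraries 1, 2 and 3, and 0 of 7 passed (median 1.68). KO library 1 stood highest and WT libraries 2 and 3 lowest in both. Ms4a14 had 0.869, 0.437 and 1.68 FPKM in KO libraries 1, 2 and 3, against 2.19, 0.881 and 1.56 FPKM in WT libraries 1, 2 and 3 (log2 difference -0.64, SE 0.50). Tmem176a and Tmem176b, expressed in dendritic cells and macrophages, had 10.7 to 16.9 and 11.1 to 18.4 FPKM in KO libraries, against 6.41 to 15.2 and 8.02 to 15.4 FPKM in WT libraries, with log2 differences of 0.44 (SE 0.29) and 0.43 (SE 0.26). The pair overlap on opposite strands, so their counts may share reads.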

How the data were processed

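Counts and FPKM of 34745 genes were used as deposited by the authors, with units as in the column headers, for 3 Phlpp1-deficient and 3 WT libraries. StringTie 1.3.0, HISAT2, edgeR and the build mm10 appear in the submitters' processing notes without their roles, and the annotation, the strand setting and the gene lengths behind the deposited FPKM are not given in the sources used here. Symbols came from GENCODE M21 (34267 of 34745 IDs matched) and promoter windows from RefSeq (GRCm38.p6). Counts were tested with edgeR 4.0.16 in R 4.3.3 (filterByExpr, TMM, robust glmQLFit, glmQLFTest; biological coefficient of variation 0.281). The pipeline was tested on simulated data. Log2 CPM used a prior count of 2. Likeness was the root mean square difference of centred log2 CPM, and the 3 nearest genes of at least 5 CPM outside the family, without clone-type symbols, were named. Relatives of at least 0.5 FPKM and the 2 most abundant genes of each list were named, and other genes of the lists were named after their values were seen. Transcripts were compared with blastn 2.17.0 (95% identity over 150 bases). Within groups no library pair agreed within sampling noise (chi-square per gene of at least 34.4). Members and gene lists were chosen with earlier results of these data known. Alternatives used DESeq2 1.42.0, limma 3.58.1, other scalings and filters, FPKM with pseudocounts of 1 and 0.1, a replicate block and each library left out.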

Additional observations from a re-analysis of the deposited data

How the results depend on the processing

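The number of the 8 genes that passed was 0 in all but 1 of 16 alternatives. It was 1, Ms4a4c, when the mean of the neutrophil markers was a covariate, chosen after seeing the data (log2 difference -1.47, edgeR adjusted p = 0.0398, against 0.0398 to 1 over its 16 alternatives). The count over all genes, 14 with edgeR, was 199 with DESeq2, 23 with limma-voom, 36 without a filter on low counts, 23 and 27 with limma on log2(FPKM + 1) and log2(FPKM + 0.1), and 42 with the covariate. It was 1 to 32 when 1 library was left out. The members' median log2 difference was -0.68 to -0.48 over all alternatives, and the log2 ratio of their summed level -0.65 to -0.40. Direction changed only for Ms4a4b, -0.27 to 0.09 with 1 library left out (0.09 without KO library 2, 0 when rounded without WT library 3), and for Ms4a8a, -0.16 to 0.40 (-0.16 without KO library 2). Ranking per kilobase of longest coding transcript, also chosen after seeing the data, moved Ms4a6b, Ms4a4a and Ms4a8a. The causes were not tested.

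Replicate numbers are shared by the genotypes, but same-numbered libraries did not all deviate together from their group means (correlations across genes -0.12, 0.33 and 0.29). Different-numbered libraries gave -0.47 to 0.34, a range that holds all of these values, so the numbers were not taken to pair the libraries. With the replicate block 1 gene passed over all genes, 0 of the 8 passed, and the members' median was -0.67. With 3 libraries in each genotype and members that vary up to 6.71-fold between libraries, only large differences could pass.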
